A study of Mus musculus with 17 samples.

Results

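Mouse pancreatic stellate cells treated with TGF-beta were compared with the same cells in control medium, in 4 and 5 RNA sequencing libraries out of the 17 in the series. The members were chosen by their labelled treatment, not by their values. The 4 TGF-beta libraries came from cells given 20 ng/mL TGF-beta and the 5 control libraries from cells in control medium. All 9 were harvested at day 4 from cells embedded in Matrigel, a basement membrane extract that forms a gel. The cells belonged to 2 lines, PSC4 and PSC5, both labelled wild type and C57BL/6J. The controls were PSC4 replicates 1, 2 and 3 and PSC5 replicates 1 and 2, and the TGF-beta libraries were PSC4 replicates 2 and 3 and PSC5 replicates 1 and 2. Per the labels, the PSC4 replicates were passages 23, 24 and 25 and the PSC5 replicates passages 27 and 28. Replicates are thus passages of 2 lines, and the p-values below measure the spread between these cultures only. The series' design text calls cells in control medium quiescent and cells with TGF-beta myofibroblastic cancer-associated fibroblasts, and the comparison asks which genes separate those states. The other 8 libraries came from medium conditioned by tumour organoids without (4, called CM) or with (4) 300 nM neratinib, an ERBB inhibitor. They entered the model to estimate the spread. Their titles also carry T6 in replicate 2 and T8 in replicate 1 of both lines. In these libraries that tag cannot be told apart from the replicate number.

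TGF-beta is a secreted cytokine that is held in the matrix in a latent form and, once released, binds a pair of receptor kinases that phosphorylate SMAD proteins. Phosphorylated SMADs enter the nucleus and act on genes of the matrix, the cytoskeleton and of the pathway's own inhibitors. Stellate cells store retinoids in the healthy pancreas and become matrix-producing fibroblasts in fibrosis and in pancreatic cancer, where TGF-beta is a known driver of the contractile, matrix-rich state and interleukin-1 signalling of an inflammatory, cytokine-secreting state.

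Library totals lay between 24420962 and 26891485 counts in control and between 24318977 and 29208095 counts with TGF-beta. Mitochondrial transcripts took 1.97% to 2.67% and 1.48% to 2.33% of the counts. Levels are given as CPM, counts per 1000000 counts of the library after correction of its total by a TMM factor, and 3 counts in a library stood for 0.106 to 0.129 CPM. Of 14 fibroblast and stellate markers, all had a count, and their summed level was 5930 to 7439 CPM in control and 10094 to 20729 CPM with TGF-beta, with Col1a1, Col1a2, Col3a1 and Vim called higher and Dcn, Pdgfra and S100a4 called lower. Among the defining stellate genes, Des, an intermediate filament gene, averaged 2.47 CPM in control, and Gfap, another, 0.167 CPM, too low for the test. Markers of other cells were low: lymphoid genes summed to at most 0.467 CPM in any of the 9 libraries and acinar and islet genes to at most 11.9 CPM, with Ins1, Ins2, Prss1, Ctrb1 and Sst at 0 throughout. Myeloid genes summed to 18.9 to 23.4 CPM in control and 10.5 to 15.5 CPM with TGF-beta (1 of 6 tested higher, Fcer1g, and 1 lower, Cd14), with Adgre1, Tyrobp, C1qa and C1qb at 0. Epithelial genes summed to 75.7 to 90.7 and 84.4 to 142 CPM (1 of 16 tested higher, Sox9, and 1 lower, Krt7), endothelial genes to 8.97 to 15.9 and 14.4 to 31.4 CPM (4 of 7 higher, Vwf, Erg, Kdr and Pecam1), and mesothelial genes to 11.7 to 43.0 and 6.97 to 20.9 CPM (1 of 4 higher, Wt1, and 2 lower, Msln and Bnc1). Pericyte and smooth muscle genes summed to 133 to 165 and 144 to 222 CPM (2 of 7 higher, Cspg4 and Mcam, and 2 lower, Myh11 and Rgs4), Schwann cell genes to 5.85 to 7.54 and 8.91 to 13.7 CPM (2 of 4 higher, Sox10 and Erbb3, and 1 lower, Ngfr) and adipocyte genes to 11.3 to 19.6 and 5.57 to 10.4 CPM (1 of 2 lower, Lipe). The part of other cell types in the changes below was not tested beyond these values. In bulk RNA, fewer cells of a type and less RNA per cell cannot be told apart.

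The library labelled control PSC4 replicate 1 went against its label. Over 319 genes that differed by at least 2 on the log2 scale between the lines' TGF-beta libraries, it lay nearer to PSC5 for 63.9%, against 29.8% and 27.3% in the other PSC4 controls and 58.3% and 61.8% in the PSC5 controls. The CM and neratinib libraries labelled PSC4 replicate 1 lay at 63.3% and 68.0%. These 3 libraries are called the doubted libraries below, and counts are given with and without them. Without them, 8 genes described below as not called were called: Bmp4, Itgav, Postn, Psat1, Serpina3n, Thbs1, Tmem9 and Twist1.

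TGF-beta changed a large share of the transcriptome in both directions. Of 13923 genes tested with edgeR's quasi-likelihood test, 5598 were called at an adjusted p under 0.05 (40.2%), 2743 higher (19.7%) and 2855 lower (20.5%), with a median log2 fold change over all tested genes of -0.02. Without the doubted libraries 6945 were called. Of the called genes, 730 rose and 939 fell by at least 1 on the log2 scale, 298 and 374 by at least 2, and 89 and 68 by at least 4. The 4 TGF-beta libraries lay entirely above or entirely below all 5 controls for 4546 genes (32.7%). These shares are the background against which the counts of each gene group are to be read. With such shares, a list whose members moved in both directions is not set apart by that alone. Many genes named from the lists were chosen for large called changes, so any lack of overlap follows in part from that choice.

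Nearly all called genes had the same sign in both lines, while the medians of some gene lists lay apart. Fitted in PSC4 alone, 2537 genes were called, and in PSC5 alone 2629. Both fits called 1475, which is 58.1% of the PSC4 calls and 56.1% of the PSC5 calls, and 1471 of these had the same sign. Of 5562 genes called in the joint fit and tested in both lines, 5558 had the same sign in each, although the joint fit that made these calls used both lines. A direct test of whether the response differed between the lines called 0 genes (0%, edgeR), with 601 genes at an unadjusted p under 0.05 and a smallest adjusted p of 0.214. DESeq2 called 29 genes in the same test. Taken as the median over a list's genes of the log2 level against the control mean, the BMP, activin and ID genes lay at -0.11 and -0.03 in the PSC4 TGF-beta libraries and -1.01 and -0.99 in those of PSC5. Elastic fibre and matrix glycoprotein genes lay at 0.95 and 0.93 in PSC4 and 0.15 and 0.02 in PSC5, and small leucine-rich proteoglycans at 0.19 and 0.26 against -0.63 and -1.92. The control mean was taken over both lines, so these values also hold differences between the lines in control medium. The BMP, activin and ID genes lay at -0.06, 0.04 and 0.17 in the PSC4 controls and -0.08 and -0.09 in the PSC5 controls. For elastic fibre and matrix glycoprotein genes these were -0.03, 0.17 and 0.18 against -0.07 and -0.14. For small leucine-rich proteoglycans they were -0.28, 0.3 and 0.4 against -0.04 and -0.35. These lists were singled out after their values had been seen, and their difference between the lines was not tested.

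**Figure D1:**
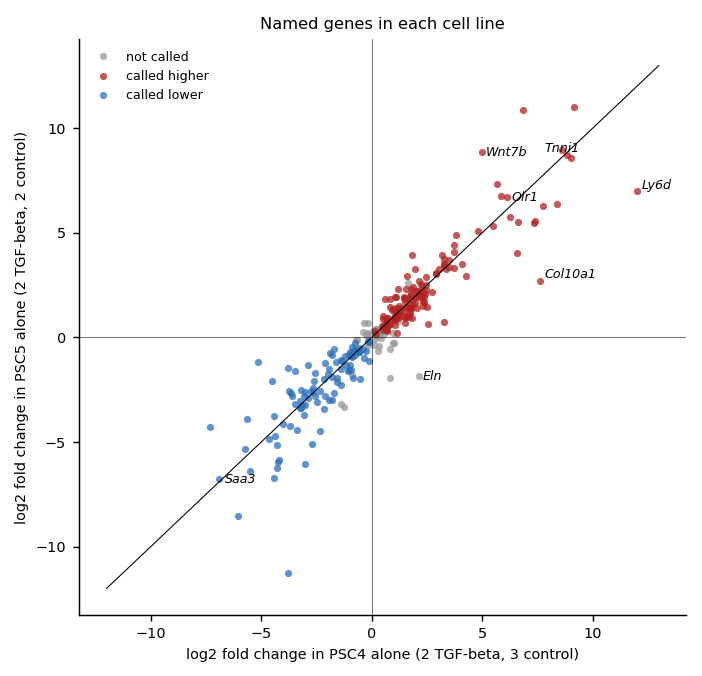
Log2 fold change of TGF-beta over control for the 269 named genes, fitted in PSC4 alone (x axis) and PSC5 alone (y axis), with the diagonal of equal change and points coloured by the call in the joint fit. All 232 called genes plotted had the same sign in both lines, and the 16 genes of opposite sign were not called.

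The largest rises were switches from near absence. Called genes qualified if their higher group averaged 10 CPM or more and the groups were apart within each line, and the 12 with the largest fitted rise were Ly6d, Heyl, Tnni1, Ctsw, Piezo2, Cdh6, Plxna4, Pkp1, Nmu, Olr1, Anxa8 and Tnnt2. The 12 largest falls were chosen by the same rule. Separation within a line was thus a condition of the choice and is no result for these genes. Heyl, a transcriptional repressor of the Notch pathway, had 0.0397, 0 and 0.0352 CPM in the PSC4 controls and 0 and 0 in the PSC5 controls. With TGF-beta, Heyl had 16.3 and 16.8 in PSC4 and 7.35 and 12.6 in PSC5. Ly6d, a small surface protein attached by a lipid anchor, had 0, 0 and 0 CPM in the PSC4 controls and 0.0359 and 0 in the PSC5 controls. With TGF-beta, Ly6d had 13.3 and 25.2 in PSC4 and 1.81 and 3.99 in PSC5. Controls held 2 counts of Heyl and 1 of Ly6d in all, so the ratio of summed counts, 928-fold (95% exact counting interval 256 to 7674) for Heyl and 1604-fold (95% exact counting interval 287 to 63400) for Ly6d, covers counting error only and is wide. Without control PSC5 replicate 1, which held the only control count of Ly6d, its fitted log2 fold change went from 9.69 to 11.17, and without TGF-beta PSC4 replicate 3 to 9.04. The 2 TGF-beta libraries of PSC4 were above both of PSC5 for Ly6d and Heyl.

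Ctsw, a lysosomal protease best known from lymphocytes, had 0, 0.0715 and 0.0705 CPM in the PSC4 controls and 0.0718 and 0.0709 in the PSC5 controls. With TGF-beta, Ctsw had 23.4 and 24.6 in PSC4 and 24.4 and 39.8 in PSC5 (log2 fold change 8.77, SE 0.28, adjusted p = 4.48e-11). The lymphoid markers summed to at most 0.467 CPM in control and 0.301 CPM with TGF-beta. Piezo2, a mechanically gated ion channel of sensory cells, had 0.199, 0.429 and 0.176 CPM in the PSC4 controls and 0.144 and 0.177 in the PSC5 controls. With TGF-beta, Piezo2 had 95.7 and 120.4 in PSC4 and 84 and 79.4 in PSC5 (log2 fold change 8.70, SE 0.26, adjusted p = 2.98e-11). For both genes, every TGF-beta library was above every control, with separation within each line fixed by the choice. Cdh6, a cadherin, rose from 0.384 ± 0.115 to 74.4 ± 44.8 CPM (SD, n = 5 and 4), and Plxna4, a semaphorin receptor, from 0.745 ± 0.179 to 113 ± 72.9 CPM (SD, n = 5 and 4). Nmu, a neuropeptide (6.57), Olr1, a scavenger receptor for oxidised lipoprotein (6.22), and Anxa8, an annexin that binds membrane phospholipid (6.17), completed the log2 fold changes of genes outside the run described next. For Cdh6, Plxna4, Nmu, Olr1 and Anxa8 the lowest TGF-beta library was TGF-beta PSC5 replicate 1. Every TGF-beta library of these genes lay above every control, again with separation within each line fixed by the choice.

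**Figure D2:**
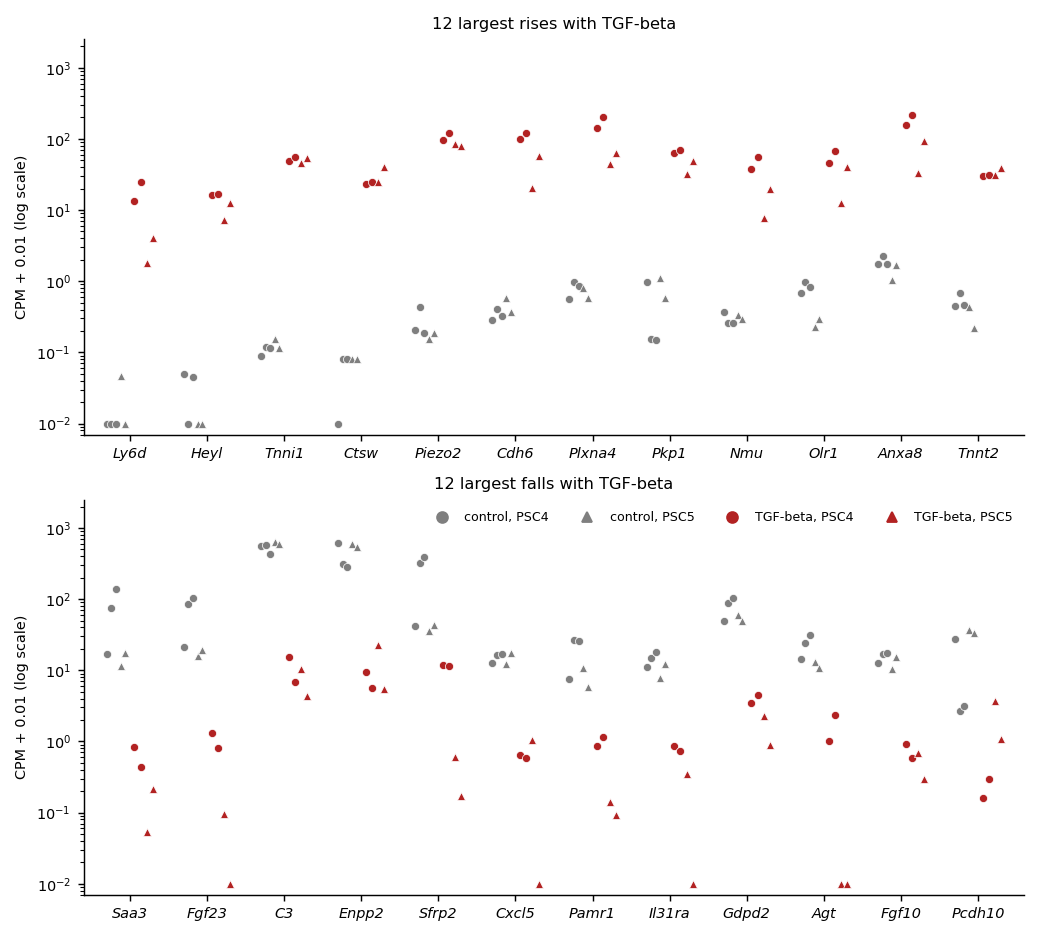
Level of the 12 largest rises (top) and 12 largest falls (bottom) in each library, as CPM + 0.01 on a log axis, with control in grey, TGF-beta in red, PSC4 as circles and PSC5 as triangles. Genes were chosen with the groups apart within each line, and across the lines the groups are separated for every gene shown except Pcdh10. Pcdh10 is lower in control PSC4 replicates 2 and 3 than in the other controls. Tnni1 goes from 0.0795 to 0.144 CPM to 46 to 56.5 CPM.

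Of the 12 largest rises, 3 were neighbours in the genome. Tnni1, Tnnt2 and Pkp1 lie within 139.8 kb of each other on chromosome 1, from 135779434 to 135919207 on GRCm38 (GENCODE M21), and the only other protein-coding gene between them, Lad1, rose too. Tnni1 encodes the inhibitory troponin subunit of slow skeletal muscle and Tnnt2 the tropomyosin-binding troponin subunit of the heart, Lad1 a filament protein of the epithelial basement membrane zone, and Pkp1 a desmosome plaque protein. Lad1 and the flanking genes were singled out after their values had been seen.

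Tnni1 had 2, 3, 3, 4 and 3 counts in the 5 control libraries and 1309, 1563, 1071 and 1314 in the 4 TGF-beta libraries. Lad1 had 1, 2, 1, 0 and 0 counts in the 5 control libraries and 171, 158, 191 and 248 in the 4 TGF-beta libraries. Tnnt2 had 11, 19, 13, 12 and 6 counts in the 5 control libraries and 801, 865, 727 and 948 in the 4 TGF-beta libraries. Every gene of the run was at 31 counts or fewer in every control library and at 158 or more in every TGF-beta library, with no overlap. Pkp1, read from the opposite strand, had 24, 4, 4, 31 and 16 counts in the 5 control libraries and 1677, 1950, 753 and 1187 in the 4 TGF-beta libraries, the widest spread of the 4 among controls. The fitted log2 fold changes were 8.83 for Tnni1 (SE 0.38, adjusted p = 1.05e-09), 7.74 for Lad1 (SE 1.41, adjusted p = 0.000516), 6.15 for Tnnt2 (SE 0.30, adjusted p = 3.44e-09) and 6.59 for Pkp1 (SE 0.55, adjusted p = 4.94e-07). Lad1 rested on 4 control counts in all, its value went to 8.35 without control PSC4 replicate 2, and in PSC4 alone it did not pass (adjusted p = 0.0657). In summed counts the ratio was 472-fold (95% exact counting interval 286 to 844) for Tnni1 and 258-fold (95% exact counting interval 101 to 951) for Lad1.

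The genes on either side of the run changed little. Upstream, Phlda3, a p53 target that dampens Akt, had 78.1 ± 21.5 CPM in control and 71.7 ± 6.66 CPM with TGF-beta (SD, n = 5 and 4) (log2 fold change -0.13, adjusted p = 0.711), and Csrp1, a LIM protein of smooth muscle, had 196 ± 13.5 CPM in control and 219 ± 16 CPM with TGF-beta (SD, n = 5 and 4) (log2 fold change 0.16, adjusted p = 0.0361). The call for Csrp1 was lost without control PSC4 replicates 2 or 3, control PSC5 replicates 1 or 2, TGF-beta PSC4 replicates 2 or 3 or TGF-beta PSC5 replicate 1 (adjusted p 0.0509 to 0.112). Downstream, Igfn1 had at most 3 counts in any of the 9 libraries, Tmem9 had 52.8 ± 6.36 CPM in control and 63.9 ± 5.74 CPM with TGF-beta (SD, n = 5 and 4) (log2 fold change 0.28, adjusted p = 0.0582, or 0.0273 with the replicate block), Ascl5 was at 0 in all 9, and Cacna1s, a skeletal muscle calcium channel, had at most 1 count. Of 29 striated muscle genes, 9 had enough counts to be tested, and Tnni1 and Tnnt2 were the members called. The replicate block added 1 member called lower. The muscle regulators Myod1 and Myog were at 0 in all 9 libraries, and the cardiac myosins Myh6 and Myh7 averaged at most 0.0286 CPM in either group. Against CM, TGF-beta libraries were higher in Tnni1 by 8.86 (adjusted p = 2.27e-09), Tnnt2 by 6.52 (adjusted p = 6.96e-09) and Pkp1 by 6.75 (adjusted p = 1.27e-06) on the log2 scale, and the difference in Lad1 was 2.02 (adjusted p = 0.134), which did not pass the test.

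**Figure D3:**
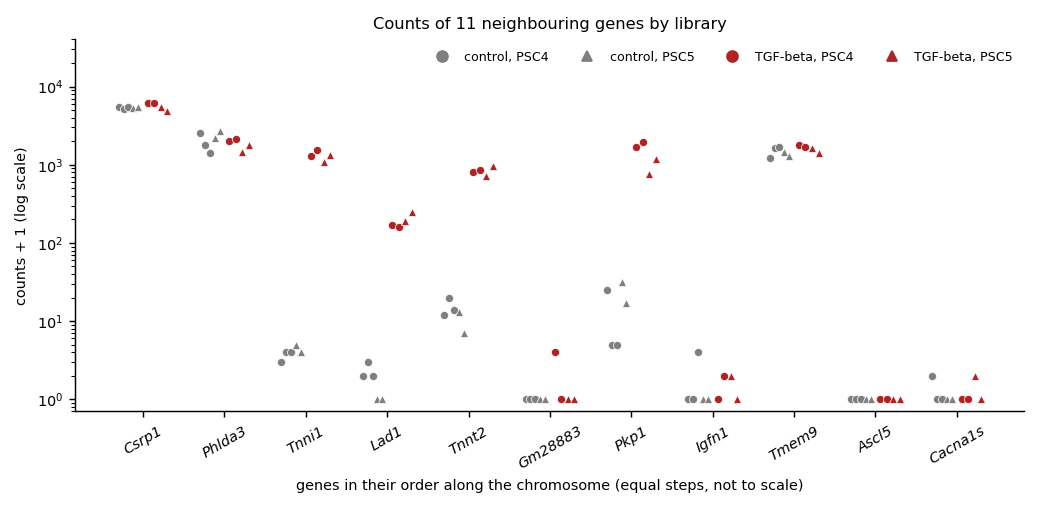
Counts + 1 on a log axis for 11 neighbouring genes of chromosome 1 in their genomic order (x axis, equal steps), in each control (grey) and TGF-beta (red) library, PSC4 as circles and PSC5 as triangles. Tnni1, Lad1, Tnnt2 and Pkp1 go from at most 31 counts to at least 158, while Csrp1, Phlda3 and Tmem9 on either side overlap between the groups.

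The promoters of the 3 genes of the run that the RefSeq table holds are shown because these genes rose together. Each sequence spans 300 bases, 250 before and 50 after the annotated start, 5′ to 3′ on GRCm38.p6, with matches to 4 motifs in capitals: the SMAD letters CAGAC, the RBPJ site GTGGGAA of the Notch pathway, the TEAD site GGAATG and the AP-1 site TGAGTCA, on either strand.
Tnni1, chr1:135799171-135799470, plus strand: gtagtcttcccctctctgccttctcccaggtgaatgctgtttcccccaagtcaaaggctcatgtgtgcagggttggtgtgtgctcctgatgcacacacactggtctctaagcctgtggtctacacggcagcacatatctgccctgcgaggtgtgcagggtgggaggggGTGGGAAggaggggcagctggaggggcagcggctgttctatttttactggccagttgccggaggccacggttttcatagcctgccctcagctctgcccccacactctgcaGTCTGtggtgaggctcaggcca
Lad1, chr1:135818348-135818647, plus strand: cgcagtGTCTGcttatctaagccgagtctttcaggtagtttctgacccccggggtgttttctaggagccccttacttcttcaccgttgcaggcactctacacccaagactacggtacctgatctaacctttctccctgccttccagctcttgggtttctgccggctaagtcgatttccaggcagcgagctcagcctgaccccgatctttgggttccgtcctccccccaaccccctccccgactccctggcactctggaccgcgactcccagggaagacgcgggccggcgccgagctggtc
Tnnt2, chr1:135836084-135836383, plus strand: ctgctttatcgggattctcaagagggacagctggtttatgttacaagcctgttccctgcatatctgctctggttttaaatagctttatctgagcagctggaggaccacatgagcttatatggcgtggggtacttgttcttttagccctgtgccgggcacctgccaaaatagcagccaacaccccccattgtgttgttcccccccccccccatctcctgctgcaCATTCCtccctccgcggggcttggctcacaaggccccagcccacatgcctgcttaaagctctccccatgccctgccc
In Tnni1, the RBPJ letters stand in the forward direction at position -82 from the start, and the SMAD letters stand in reverse at position 29. Lad1 has the SMAD letters in reverse at position -244. In Tnnt2, the TEAD letters stand in reverse at position -27, and no motif overlaps another in the 3 windows. Of 32851 mouse promoters in that table, 49.6% hold the SMAD letters, 6.38% the RBPJ letters, 14.7% the TEAD letters and 5.2% the AP-1 letters. Tnni1 and Tnnt2 each have a further listed start, not shown, and the promoter of Pkp1 was not used here.

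Stellate cells given TGF-beta raised the ligand genes of the pathway itself. Among TGF-beta ligands, receptors and latent binding proteins, 5 of 14 tested members rose and 2 fell (6 and 3 with the doubted libraries removed), with a median of 0.34 on the log2 scale. Tgfb1 had 39, 41.6 and 44.3 CPM in the PSC4 controls and 41.9 and 33.5 in the PSC5 controls. With TGF-beta, Tgfb1 had 183 and 215 in PSC4 and 115 and 170.0 in PSC5, a 4.29-fold rise (log2 fold change 2.10, SE 0.19, adjusted p = 8.15e-07). The ligands Tgfb2 (1.25) and Tgfb3 (1.46) and Ltbp4 (1.42), a protein that tethers latent TGF-beta to the matrix, also rose in log2 terms (adjusted p at most 0.00346). All 3 ligand genes thus moved up. Of the signalling receptors, Tgfbr1 had 94.4 ± 20.7 CPM in control and 108 ± 38.6 CPM with TGF-beta (SD, n = 5 and 4), and Tgfbr2 had 215 ± 12.5 CPM in control and 246 ± 69.4 CPM with TGF-beta (SD, n = 5 and 4). Neither passed the test (adjusted p = 0.467 and 0.43). Tgfbr3, the co-receptor betaglycan, fell from 314 ± 37.5 to 84.9 ± 28.8 CPM (SD, n = 5 and 4) (log2 fold change -1.88, SE 0.19, adjusted p = 3.54e-06). Eng, the other co-receptor, fell by less (-0.48, adjusted p = 0.0411), a call lost without control PSC4 replicates 1, 2 or 3, control PSC5 replicate 1, TGF-beta PSC4 replicate 3 or TGF-beta PSC5 replicate 2 (adjusted p 0.0604 to 0.132).

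SMAD targets and feedback inhibitors rose together. Of these genes, 14 of 19 tested members rose and 1 fell (17 and 1 with the doubted libraries removed), with a median of 0.70. Pmepa1, a membrane protein that traps SMADs, had 57.9, 59.1 and 67.6 CPM in the PSC4 controls and 57.6 and 39.3 in the PSC5 controls. With TGF-beta, Pmepa1 had 589.6 and 796 in PSC4 and 411 and 576 in PSC5 (log2 fold change 3.41, SE 0.24, adjusted p = 9.2e-08). Skil, a SMAD co-repressor, had 39.4, 33.3 and 31.5 CPM in the PSC4 controls and 37 and 32.3 in the PSC5 controls. With TGF-beta, Skil had 148 and 191 in PSC4 and 173 and 193 in PSC5 (log2 fold change 2.33, SE 0.17, adjusted p = 1.21e-07). No TGF-beta library overlapped a control for either gene. Smad7, the inhibitory SMAD, rose from 29.6 ± 2.09 to 50.2 ± 7.1 CPM (SD, n = 5 and 4), and Nox4, a hydrogen peroxide-producing oxidase, from 1.21 ± 0.255 to 5.07 ± 0.157 CPM (SD, n = 5 and 4). The repressor Bhlhe40 rose by 2.09 on the log2 scale (adjusted p = 7.25e-07). Smad3, a signalling SMAD, was the 1 member that fell (-0.91, adjusted p = 8.96e-06). Tgfbi, named for its induction by TGF-beta in other cells, had 162, 362 and 376 CPM in the PSC4 controls and 232 and 154 in the PSC5 controls. With TGF-beta, Tgfbi had 348 and 305 in PSC4 and 245 and 121 in PSC5 and did not pass the test (adjusted p = 0.97).

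The ID genes, dominant-negative helix-loop-helix factors that BMP signalling induces, went the other way. In the list of BMP, activin and ID genes, 7 of 22 tested members rose and 9 fell (7 and 12 with the doubted libraries removed). Id1 had 30.6, 20.3 and 23.8 CPM in the PSC4 controls and 21.1 and 28.3 in the PSC5 controls. With TGF-beta, Id1 had 7.93 and 8.52 in PSC4 and 3.78 and 8.83 in PSC5 (log2 fold change -1.77, SE 0.23, adjusted p = 3.25e-05). Id3 fell from 133 ± 16.9 to 30.7 ± 14.1 CPM (SD, n = 5 and 4) and Id4 from 13.4 ± 6.78 to 1.97 ± 1.33 CPM (SD, n = 5 and 4) (log2 fold changes -2.11 and -2.74, adjusted p at most 0.000307). Every TGF-beta library was below every control for Id1, Id3 and Id4. The activin subunits split: Inhba rose from 44.9 ± 2.93 to 191 ± 21.4 CPM (SD, n = 5 and 4) and Inhbb fell from 183 ± 18.9 to 37.1 ± 17.7 CPM (SD, n = 5 and 4) (adjusted p = 1.3e-06 and 0.00137). Bmp1, a protease that trims procollagen, rose by 1.08 on the log2 scale (adjusted p = 0.000255), and Bmp4, with 4.7 ± 4.83 CPM in control and 1.52 ± 1.66 CPM with TGF-beta (SD, n = 5 and 4), missed the threshold (adjusted p = 0.0768, or -2.06, adjusted p = 0.00241 with the replicate block).

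Collagen genes rose as a group, while a few chains fell. Of the collagen chains, 20 of 33 tested members rose and 3 fell (21 and 6 with the doubted libraries removed), with a median of 1.13 on the log2 scale. Col1a1, the main chain of type I collagen, had 2093, 1468 and 1353 CPM in the PSC4 controls and 1974 and 1865 in the PSC5 controls. With TGF-beta, Col1a1 had 8248 and 7027 in PSC4 and 10485 and 5244 in PSC5, a 4.37-fold rise (log2 fold change 2.13, SE 0.29, adjusted p = 4.4e-05). Col1a2, its partner chain, rose from 855 ± 228 to 2595 ± 528 CPM (SD, n = 5 and 4) (adjusted p = 6.5e-05). The groups do not overlap for either chain. Col15a1 and Col10a1, minor chains of basement membrane zones and of cartilage, rose most in log2 terms (5.59 and 6.02, adjusted p at most 4.22e-05). Col10a1 had 0.119, 0.0715 and 0.176 CPM in the PSC4 controls and 0.144 and 0.142 in the PSC5 controls. With TGF-beta, Col10a1 had 23.9 and 25.7 in PSC4 and 1.2 and 0.732 in PSC5, higher in both PSC4 libraries with TGF-beta than in both of PSC5, a difference in response that did not pass the test between lines (adjusted p = 0.246). Col5a3 (3.60), Col7a1 (3.53), Col6a3 (1.93), Col5a1 (1.15) and Col4a1 (1.13) rose as well (log2 fold changes, adjusted p at most 0.00157).

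Col3a1, the chain of type III collagen, had 1616, 1351 and 1379 CPM in the PSC4 controls and 1660.1 and 1199.9 in the PSC5 controls. With TGF-beta, Col3a1 had 3672 and 2943 in PSC4 and 4716 and 858 in PSC5. Its lowest TGF-beta library lay below all controls, and its call (log2 fold change 1.08, SE 0.38, adjusted p = 0.0333) was lost without control PSC4 replicates 2 or 3, control PSC5 replicate 2, TGF-beta PSC4 replicates 2 or 3 or TGF-beta PSC5 replicate 1 (adjusted p 0.0593 to 0.162). The 3 chains that fell were Col23a1 (-3.18), Col4a6 (-2.91) and Col4a5 (-0.92), of which Col4a5 and Col4a6 are chains of basement membrane collagen. Col23a1 and Col4a6 passed with adjusted p of 1.77e-05 and 2.08e-05, and Col4a5 narrowly, at 0.0472, a call lost without control PSC4 replicates 1, 2 or 3, control PSC5 replicates 1 or 2, TGF-beta PSC4 replicates 2 or 3 or TGF-beta PSC5 replicate 2 (adjusted p 0.0539 to 0.131) and with the replicate block (adjusted p = 0.0592). With the 2 compared groups fitted alone, 6 chains fell in place of 3.

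Enzymes that fold and crosslink collagen rose. In that list, 16 of 26 tested members rose and 0 fell (16 and 3 with the doubted libraries removed), and 3 fell with the replicate block. Serpinh1, the collagen chaperone, rose from 775 ± 83.2 to 1262 ± 80.0 CPM (SD, n = 5 and 4), Plod2, a lysyl hydroxylase, from 113 ± 6.3 to 197 ± 39.6 CPM (SD, n = 5 and 4), and Pcolce2, a procollagen protease enhancer, from 5.37 ± 1.94 to 27.1 ± 1.88 CPM (SD, n = 5 and 4) (adjusted p at most 0.00158). P4ha2, a prolyl hydroxylase, and Loxl2, a lysyl oxidase, spread widely with TGF-beta, 61.7 to 234 CPM and 135 to 710.2 CPM (log2 fold changes 1.35 and 1.22, adjusted p = 0.000737 and 0.00983). TGF-beta PSC5 replicate 1 was the highest for both, and Loxl2 overlapped between the groups. Tgm2, a transglutaminase that crosslinks matrix proteins, rose by 1.33 on the log2 scale (adjusted p = 0.00259). Lox, the founding lysyl oxidase, had 638, 767 and 951 CPM in the PSC4 controls and 791 and 543 in the PSC5 controls. With TGF-beta, Lox had 695 and 693 in PSC4 and 911 and 604 in PSC5 and was not called (adjusted p = 0.934).

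Elastic fibre and matrix glycoprotein genes moved in both directions: 12 of 28 tested members rose and 6 fell (14 and 7 with the doubted libraries removed). Fn1, fibronectin, had 4569, 4318 and 3598 CPM in the PSC4 controls and 5263 and 4873 in the PSC5 controls. With TGF-beta, Fn1 had 10325 and 9087 in PSC4 and 13794 and 8597 in PSC5 (log2 fold change 1.18, SE 0.17, adjusted p = 8e-05). Fbn1, the microfibril protein fibrillin, rose from 157 ± 10.9 to 589 ± 124 CPM (SD, n = 5 and 4) (adjusted p = 5.58e-07), and Tnc, the matricellular protein tenascin, from 493 ± 26.6 to 1768 ± 788 CPM (SD, n = 5 and 4) (adjusted p = 0.000104). Cthrc1, a secreted marker of matrix-producing fibroblasts, went from 2.19 ± 0.924 to 23.9 ± 10.8 CPM (SD, n = 5 and 4) and Cilp, a cartilage matrix protein that binds TGF-beta, from 0.0951 ± 0.0657 to 6.84 ± 1.48 CPM (SD, n = 5 and 4) (adjusted p at most 6.66e-06). The groups did not overlap for these 5 genes, nor for 32.7% of all tested genes. Mfap4 (2.77) and Mfap5 (3.45), microfibril-associated proteins, rose and Mfap2 (-1.40), another, fell on the log2 scale (adjusted p at most 0.0068). Tnxb, a tenascin of loose connective tissue, fell from 24.6 ± 7.85 to 1.6 ± 0.79 CPM (SD, n = 5 and 4), Efemp1, a fibulin, from 188 ± 21.1 to 38 ± 28.3 CPM (SD, n = 5 and 4), and Fbln1, another, from 261 ± 84.3 to 99.3 ± 27.2 CPM (SD, n = 5 and 4) (adjusted p at most 0.00101). Postn, periostin, had 204, 1021 and 1175 CPM in the PSC4 controls and 396 and 196 in the PSC5 controls. With TGF-beta, Postn had 2581 and 2418 in PSC4 and 2410.4 and 1126 in PSC5 and was not called (log2 fold change 1.98, adjusted p = 0.0723, or 1.85, adjusted p = 0.025 with the replicate block). Control PSC4 replicates 2 and 3 were the highest controls for Postn. Thbs1, thrombospondin, which can release latent TGF-beta, had 1032 ± 120.0 CPM in control and 649.6 ± 126 CPM with TGF-beta (SD, n = 5 and 4) and was not called (log2 fold change -0.66, adjusted p = 0.122, or -0.67, adjusted p = 0.00449 without the doubted libraries). Eln, elastin, had 7.39, 15 and 19.2 CPM in the PSC4 controls and 8.76 and 5.78 in the PSC5 controls. With TGF-beta, Eln had 43.4 and 76.5 in PSC4 and 1.46 and 2.52 in PSC5, higher in PSC4 and lower in PSC5, and was not called (adjusted p = 0.333).

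Small leucine-rich proteoglycans, which coat collagen fibrils, diverged: 2 of 10 tested members rose and 3 fell (2 and 4 with the doubted libraries removed). Bgn, biglycan, rose from 2983 ± 138 to 7094 ± 1714 CPM (SD, n = 5 and 4) (log2 fold change 1.25, SE 0.21, adjusted p = 0.000233), and Dcn, decorin, fell from 181 ± 39.6 to 50.5 ± 41.5 CPM (SD, n = 5 and 4) (log2 fold change -2.01, SE 0.43, adjusted p = 0.0018). Fmod, fibromodulin, rose by 1.79 (adjusted p = 0.018), lost without TGF-beta PSC4 replicate 3 (1.51, adjusted p = 0.0631) and with DESeq2 (1.83, adjusted p = 0.0542). Biglycan and decorin did not overlap between the groups, in opposite directions. Ogn, osteoglycin, fell by 1.78 (adjusted p = 0.0351), a call lost without control PSC4 replicate 1, control PSC5 replicate 1, TGF-beta PSC4 replicate 3 or TGF-beta PSC5 replicates 1 or 2 (adjusted p 0.0661 to 0.0988) and with the replicate block (adjusted p = 0.0542). Lum, lumican, had 3.78, 11.9 and 14 CPM in the PSC4 controls and 4.24 and 2.27 in the PSC5 controls. With TGF-beta, Lum had 16.2 and 18.5 in PSC4 and 1.38 and 0.325 in PSC5 and was not called (adjusted p = 0.989).

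Matrix proteases changed in both directions. Among matrix proteases and their inhibitors, 9 of 32 tested members rose and 12 fell (12 and 13 with the doubted libraries removed). Proteases that cleave proteoglycans fell: Adamts1 from 257 ± 44.7 to 40.1 ± 16.3 CPM (SD, n = 5 and 4), Adamts5 from 231 ± 18.4 to 41.3 ± 17.5 CPM (SD, n = 5 and 4) and Adamts9 from 28.1 ± 1.34 to 4.39 ± 2.52 CPM (SD, n = 5 and 4) (adjusted p at most 0.000111). Mmp3, stromelysin, fell by 1.74 on the log2 scale (adjusted p = 0.000146). Rising members were Timp1, a metalloprotease inhibitor (1.45), Mmp2, a gelatinase (1.37), Adam12, a disintegrin (1.83), and the secreted proteases Adamts16 (2.60) and Adamts6 (1.50), all as log2 fold changes with adjusted p at most 0.000847. Mmp14, the membrane protease that activates Mmp2, had 476 ± 103 CPM in control and 613 ± 205 CPM with TGF-beta (SD, n = 5 and 4) and was not called (log2 fold change 0.38, adjusted p = 0.0631, or 0.29, adjusted p = 0.00521 with the replicate block).

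Among integrins, the matrix receptors of the cell, 8 of 20 tested members rose and 3 fell (9 and 4 with the doubted libraries removed), and 5 fell with the replicate block. Itgb3, a partner of the alpha-v chain, had 5.01, 9.23 and 9.23 CPM in the PSC4 controls and 5.85 and 4.4 in the PSC5 controls. With TGF-beta, Itgb3 had 94 and 108 in PSC4 and 69.5 and 106 in PSC5, a 14.6-fold rise (log2 fold change 3.86, SE 0.30, adjusted p = 2.38e-07). Itga5, the fibronectin receptor chain, rose from 176 ± 33.6 to 542 ± 83.1 CPM (SD, n = 5 and 4) and Itga7, a laminin receptor chain, from 17.1 ± 2.59 to 47.2 ± 10.9 CPM (SD, n = 5 and 4) (adjusted p at most 7.27e-06). Itga1, a collagen receptor chain, fell from 60.2 ± 23.6 to 13.5 ± 4.08 CPM (SD, n = 5 and 4), and Itga8 from 5.37 ± 3.06 to 1.46 ± 0.304 CPM (SD, n = 5 and 4) (adjusted p = 0.00161 and 0.00289). Itgav, the alpha-v chain, had 296 ± 30.4 CPM in control and 367 ± 63.7 CPM with TGF-beta (SD, n = 5 and 4) and narrowly missed the threshold (log2 fold change 0.29, adjusted p = 0.0635), and was at 0.32, adjusted p = 0.0112 with the replicate block. Itga11, a collagen receptor chain of fibroblasts, had 6.68, 6.47 and 6.17 CPM in the PSC4 controls and 6.14 and 6.84 in the PSC5 controls. With TGF-beta, Itga11 had 12.6 and 9.72 in PSC4 and 8 and 0.732 in PSC5, above the controls in PSC4 and split in PSC5, and was not called (adjusted p = 0.756).

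Smooth muscle genes, the usual markers of myofibroblasts, moved in both directions. Of the contractile list, 7 of 23 tested members rose and 5 fell (8 and 5 with the doubted libraries removed), with a median of -0.03, close to the -0.02 of all genes. Acta2, smooth muscle actin, had 432, 249.6 and 261 CPM in the PSC4 controls and 280.2 and 371 in the PSC5 controls. With TGF-beta, Acta2 had 308 and 341 in PSC4 and 439 and 365 in PSC5 (log2 fold change 0.13, SE 0.29, adjusted p = 0.758). Tagln, an actin-binding protein of smooth muscle, had 239.8, 108 and 108 CPM in the PSC4 controls and 166 and 203 in the PSC5 controls. With TGF-beta, Tagln had 107 and 122 in PSC4 and 239.8 and 199 in PSC5 (log2 fold change -0.13, adjusted p = 0.758). The groups overlapped for both, and control PSC4 replicate 1, a doubted library, held the highest control value of each. Cnn1, calponin (0.13), and Tpm1, tropomyosin (-0.09), did not pass either (log2 fold changes, adjusted p = 0.762 and 0.714).

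Members of the contractile list that fell were Lmod1, an actin nucleator of smooth muscle, from 18.2 ± 1.54 to 2.57 ± 0.734 CPM (SD, n = 5 and 4), Mylk, myosin light chain kinase, from 18.7 ± 14.2 to 3.44 ± 1.36 CPM (SD, n = 5 and 4), Synpo2, an actin-binding protein, from 5.98 ± 1.66 to 2.4 ± 1.44 CPM (SD, n = 5 and 4), and Myl9, a regulatory light chain, from 115 ± 18.5 to 64.2 ± 11.7 CPM (SD, n = 5 and 4) (adjusted p at most 0.0127). The fifth, the smooth muscle myosin Myh11, was at a mean of 0.595 CPM in control. Those that rose included the actin crosslinkers Flna (0.59) and Actn1 (0.51), Smtn, smoothelin (0.99), and Pdlim7, an adaptor of actin fibres (1.24), as log2 fold changes with adjusted p at most 0.000291. TGF-beta libraries were above CM libraries for 14 of the 23 tested members and below for 1, where 35.3% of all genes were called in either direction. Acta2 was higher than in CM by 1.34 (adjusted p = 0.00327), with CM at 142 ± 57.5 CPM (SD, n = 4). Against control medium, CM itself was lower in Acta2 (log2 difference -1.21, adjusted p = 0.0153). Acta2 thus differed between TGF-beta and CM but not beyond the threshold between TGF-beta and control medium.

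Targets of YAP and TEAD, transcription factors of mechanical tension, split: 5 of 17 tested members rose and 7 fell (5 and 7 with the doubted libraries removed). Ccn2, connective tissue growth factor, had 59.4, 55.5 and 68.2 CPM in the PSC4 controls and 40.1 and 42.6 in the PSC5 controls. With TGF-beta, Ccn2 had 243 and 328 in PSC4 and 299 and 189.7 in PSC5 (log2 fold change 2.33, SE 0.30, adjusted p = 3.18e-05), and Nt5e, an ectonucleotidase, rose from 6.24 ± 2.2 to 59.8 ± 13 CPM (SD, n = 5 and 4) (adjusted p = 4.15e-05). Amotl1, an angiomotin (0.58), and Axl, a receptor kinase (0.43), rose by less on the log2 scale (adjusted p at most 0.00434). Amotl2, another angiomotin, fell from 236 ± 7.76 to 99.1 ± 26.6 CPM (SD, n = 5 and 4), F3, tissue factor, from 329 ± 32.6 to 63.4 ± 30.6 CPM (SD, n = 5 and 4), and Crim1, a BMP-binding membrane protein, from 185 ± 11.2 to 78.8 ± 15.5 CPM (SD, n = 5 and 4) (adjusted p at most 3.93e-05). Ankrd1, another target, had 168 ± 41.6 CPM in control and 133 ± 58 CPM with TGF-beta (SD, n = 5 and 4) and was not called (adjusted p = 0.259).

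**Figure D4:**
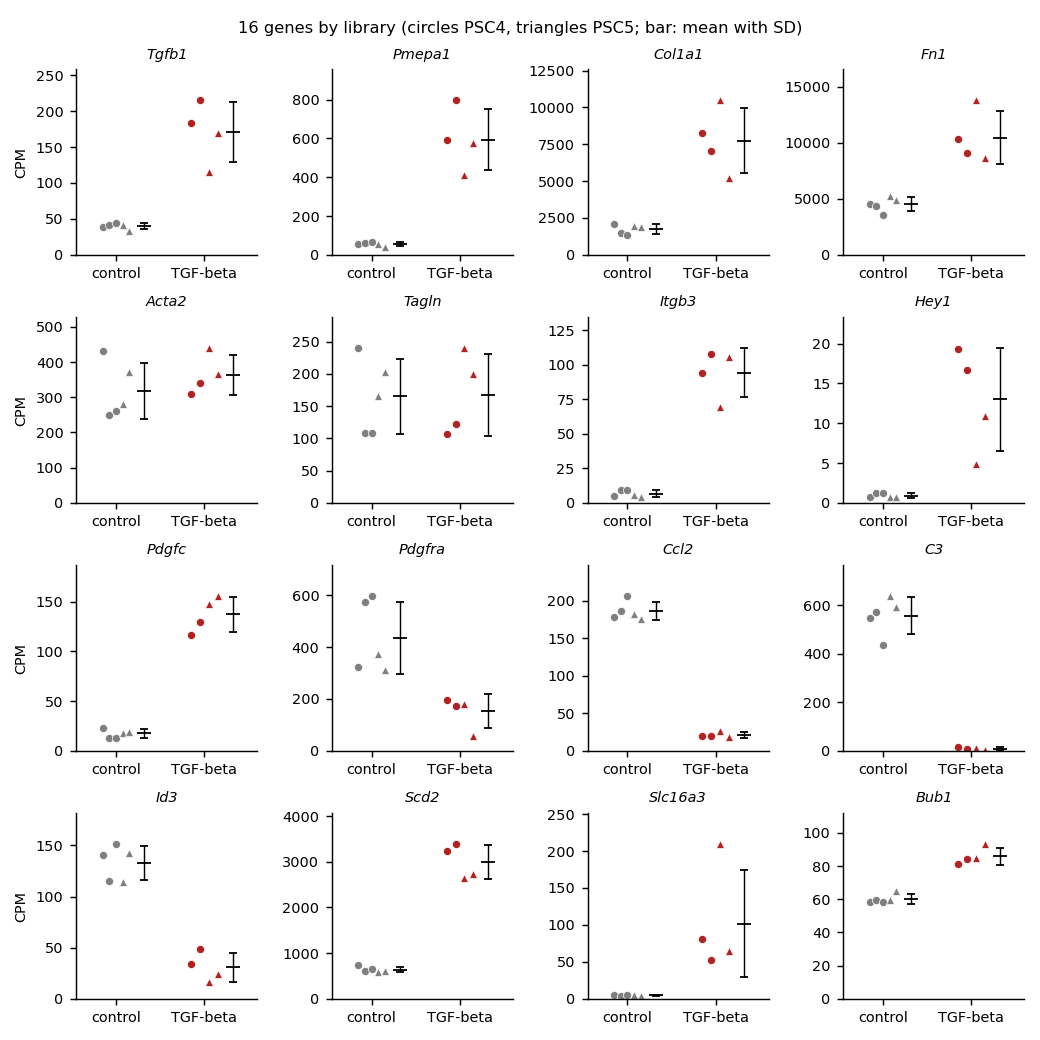
Level of 16 genes in each library in CPM (linear y axes from 0), control in grey and TGF-beta in red, PSC4 as circles and PSC5 as triangles, with the mean and SD beside each group. Acta2 and Tagln overlap between the groups, and the other 14 genes, all of them called, do not.

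The ligand Jag1 and repressors downstream of Notch rose. Of the Notch list, 7 of 16 tested members rose and 3 fell (7 and 4 with the doubted libraries removed). Jag1, a ligand, had 17, 11.9 and 10.2 CPM in the PSC4 controls and 16.3 and 16.8 in the PSC5 controls. With TGF-beta, Jag1 had 78.9 and 95.1 in PSC4 and 55.6 and 90.9 in PSC5 (log2 fold change 2.47, SE 0.22, adjusted p = 8.69e-07). Hes1 rose from 8.49 ± 1.09 to 39.9 ± 10.5 CPM (SD, n = 5 and 4) and Hey1 from 0.911 ± 0.304 to 13 ± 6.44 CPM (SD, n = 5 and 4), both repressors that active Notch receptors induce (adjusted p at most 2.8e-06), next to Heyl described above. None of the 3 repressors overlapped between the groups. The receptor Notch1 fell from 80.8 ± 6.91 to 52 ± 12.2 CPM (SD, n = 5 and 4) (adjusted p = 0.0118), the receptor Notch3 had 81.6 ± 27.4 CPM in control and 79.9 ± 26.4 CPM with TGF-beta (SD, n = 5 and 4) and was not called, and the sugar transferases Lfng (-0.67, adjusted p = 0.014) and Rfng (-0.18, adjusted p = 0.0339) fell, the latter a call lost without control PSC4 replicates 1, 2 or 3, control PSC5 replicate 1, TGF-beta PSC4 replicates 2 or 3 or TGF-beta PSC5 replicates 1 or 2 (adjusted p 0.0501 to 0.0954).

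WNT genes moved in both directions, and several secreted antagonists fell. In that list 6 of 27 tested members rose and 11 fell (7 and 12 with the doubted libraries removed), and the falls numbered 7 without TGF-beta PSC4 replicate 3 and 5 without TGF-beta PSC5 replicate 2. Wnt11 had 1.55, 0.858 and 1.13 CPM in the PSC4 controls and 1.72 and 0.922 in the PSC5 controls. With TGF-beta, Wnt11 had 6.42 and 6.32 in PSC4 and 7.09 and 12.4 in PSC5 (log2 fold change 2.66, SE 0.26, adjusted p = 2.62e-06), and Wnt9a rose from 1.73 ± 0.604 to 6.6 ± 0.508 CPM (SD, n = 5 and 4) (adjusted p = 3.59e-05). Both lie above every control in every TGF-beta library. Wnt4 fell from 12.7 ± 8.74 to 0.936 ± 0.719 CPM (SD, n = 5 and 4) and Rspo2, a WNT enhancer, from 7.11 ± 2.33 to 0.958 ± 0.455 CPM (SD, n = 5 and 4) (adjusted p = 0.0043 and 3.66e-05). Sfrp2, a secreted WNT antagonist, had 41.7, 322 and 392 CPM in the PSC4 controls and 36.1 and 43.7 in the PSC5 controls. With TGF-beta, Sfrp2 had 11.8 and 11.6 in PSC4 and 0.602 and 0.163 in PSC5 (log2 fold change -4.86, SE 1.02, adjusted p = 0.00156). Its PSC4 replicates 2 and 3 were far above the other controls, and all controls were above all TGF-beta libraries. Wnt7b, another ligand, rose from 0.0619 ± 0.1 to 6.73 ± 4.69 CPM (SD, n = 5 and 4) (log2 fold change 6.42, SE 1.25, adjusted p = 0.00085; 8.08 without control PSC4 replicate 1). Wnt5a, a non-canonical ligand, rose by 0.73 (adjusted p = 0.0256), a call lost without control PSC4 replicate 2 or TGF-beta PSC4 replicates 2 or 3 (adjusted p 0.0524 to 0.12). The antagonist Sfrp1 (-2.58, adjusted p = 0.0365) lost its call without any 1 of 8 of the 9 libraries, all but control PSC4 replicate 1 (adjusted p 0.0507 to 0.0922), and Axin2, a feedback target of beta-catenin (-0.81, adjusted p = 0.0341), without control PSC4 replicates 2 or 3, control PSC5 replicate 1, TGF-beta PSC4 replicates 2 or 3 or TGF-beta PSC5 replicates 1 or 2 (adjusted p 0.0523 to 0.0972). Lef1, the nuclear partner of beta-catenin, rose from 11.5 ± 3.66 to 60.5 ± 9.02 CPM (SD, n = 5 and 4) (adjusted p = 8.96e-06).

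Growth factor genes changed in both directions: 14 of 35 tested members rose and 13 fell (15 and 14 with the doubted libraries removed). The PDGF ligands Pdgfa, Pdgfb and Pdgfc rose: Pdgfa from 13.5 ± 1.24 to 61.2 ± 11.4 CPM (SD, n = 5 and 4), Pdgfb from 1.96 ± 0.284 to 34.9 ± 12 CPM (SD, n = 5 and 4) and Pdgfc from 17.5 ± 4.19 to 138 ± 17.6 CPM (SD, n = 5 and 4) (log2 fold changes 2.15, 4.05 and 2.97, adjusted p at most 2.78e-07). Pdgfd, the remaining ligand of the family, fell (-1.28, adjusted p = 0.0236), a call not followed with a library left out. The receptor Pdgfra, used as a marker of inflammatory fibroblasts, had 322, 576 and 596 CPM in the PSC4 controls and 373 and 312 in the PSC5 controls. With TGF-beta, Pdgfra had 198 and 174 in PSC4 and 182 and 56.7 in PSC5 (log2 fold change -1.48, SE 0.44, adjusted p = 0.0138). Every TGF-beta library was below every control, with TGF-beta PSC5 replicate 2 the lowest. Pdgfrb, the other receptor, had 351 ± 86.6 CPM in control and 509 ± 150.2 CPM with TGF-beta (SD, n = 5 and 4) and was not called (adjusted p = 0.201).

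Fgf10, an epithelial growth factor of mesenchyme, had 12.8, 16.9 and 17.4 CPM in the PSC4 controls and 10.3 and 15.2 in the PSC5 controls. With TGF-beta, Fgf10 had 0.902 and 0.578 in PSC4 and 0.688 and 0.285 in PSC5, 23.2-fold lower (log2 fold change -4.54, SE 0.27, adjusted p = 2.02e-08). Fgf23, a hormone of phosphate balance, had 21.5, 86.2 and 103 CPM in the PSC4 controls and 16.1 and 19 in the PSC5 controls. With TGF-beta, Fgf23 had 1.31 and 0.795 in PSC4 and 0.086 and 0 in PSC5 (log2 fold change -6.33, SE 1.14, adjusted p = 0.000491), a call that limma-voom did not make (adjusted p = 0.217). Fgf21, a hormone of metabolic stress, rose from 0.16 ± 0.0935 to 7.1 ± 2.27 CPM (SD, n = 5 and 4) (log2 fold change 5.45, SE 0.45, adjusted p = 4.84e-07). The 3 hormones and growth factors separated the groups completely, as did 32.7% of all tested genes. Igfbp3, an IGF-binding protein, fell from 22.4 ± 8.69 to 2.72 ± 2.68 CPM (SD, n = 5 and 4) (log2 fold change -3.25, SE 0.64, adjusted p = 0.000981; -3.89 without TGF-beta PSC5 replicate 1), and Igfbp5 rose by 1.59 (adjusted p = 0.000724). Igf2 fell from 7.81 ± 6.06 to 0.618 ± 0.196 CPM (SD, n = 5 and 4) (adjusted p = 0.000289), and Igf1, with 23.1 ± 11.2 CPM in control and 9.31 ± 4.58 CPM with TGF-beta (SD, n = 5 and 4), was not called (adjusted p = 0.172).

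Most of the called cytokine and chemokine genes fell. Of that list, 2 of 27 tested members rose and 14 fell (2 and 14 with the doubted libraries removed), with a median of -0.80. Ccl2, the monocyte chemokine, had 178, 186 and 206 CPM in the PSC4 controls and 182 and 176 in the PSC5 controls. With TGF-beta, Ccl2 had 19.6 and 20.2 in PSC4 and 26 and 17.9 in PSC5, 8.89-fold lower (log2 fold change -3.15, SE 0.21, adjusted p = 6.7e-08). Cxcl1, a neutrophil chemokine, fell from 9.83 ± 0.774 to 1.07 ± 0.586 CPM (SD, n = 5 and 4) and Cxcl5, another, from 15.2 ± 2.47 to 0.562 ± 0.425 CPM (SD, n = 5 and 4) (adjusted p = 0.000193 and 2.59e-05). All 3 chemokines were lower in every TGF-beta library. Cxcl12, the ligand of Cxcr4, had 2146, 3386 and 3978 CPM in the PSC4 controls and 2124 and 1953 in the PSC5 controls. With TGF-beta, Cxcl12 had 1378 and 1467 in PSC4 and 1058 and 572 in PSC5 (adjusted p = 0.0181; 0.0593 without TGF-beta PSC5 replicate 2, log2 fold change -1.07). Ptges, a prostaglandin E synthase, fell from 26 ± 5.04 to 3.34 ± 2.96 CPM (SD, n = 5 and 4) (log2 fold change -3.11, SE 0.34, adjusted p = 7.12e-06; -3.76 without TGF-beta PSC5 replicate 1).

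The members that rose were Il11, a fibroblast cytokine that TGF-beta is known to induce, and Ccl8, a monocyte chemokine, at 2.03, adjusted p = 0.00844 and with overlap between the groups. Il11 had 0.795, 0.322 and 0.352 CPM in the PSC4 controls and 0.97 and 1.1 in the PSC5 controls. With TGF-beta, Il11 had 2.07 and 2.82 in PSC4 and 3.05 and 3.74 in PSC5 (log2 fold change 2.03, SE 0.37, adjusted p = 0.000537). Il6 and Lif, cytokines of the inflammatory fibroblast state, were not called in either direction. Il6 had 1.15, 2.29 and 2.47 CPM in the PSC4 controls and 1.08 and 1.77 in the PSC5 controls. With TGF-beta, Il6 had 3.72 and 5.13 in PSC4 and 2.28 and 2.56 in PSC5 (log2 fold change 0.97, adjusted p = 0.0804), and Lif had 19.6, 9.98 and 6.66 CPM in the PSC4 controls and 17.3 and 20.0 in the PSC5 controls. With TGF-beta, Lif had 9.96 and 11.5 in PSC4 and 33.5 and 26.8 in PSC5 (log2 fold change 0.31, adjusted p = 0.589). Neither was called and both overlapped between the groups, while Lif was at 0.57, adjusted p = 0.0369 with the replicate block. Ptgs2, the inducible cyclooxygenase, had 75.7 ± 17.2 CPM in control and 66.4 ± 13 CPM with TGF-beta (SD, n = 5 and 4) and was not called (adjusted p = 0.623).

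Acute phase and complement genes included the largest falls of the comparison. Of that list, 0 of 19 tested members rose and 12 fell (1 and 15 with the doubted libraries removed), with a median of -2.45. C3, the central complement protein, had 549, 572 and 435 CPM in the PSC4 controls and 637 and 594 in the PSC5 controls. With TGF-beta, C3 had 15.4 and 6.86 in PSC4 and 10.4 and 4.39 in PSC5, 59.8-fold lower (log2 fold change -5.90, SE 0.66, adjusted p = 7.59e-06). Saa3, a serum amyloid protein, had 17, 76 and 140.0 CPM in the PSC4 controls and 11.4 and 17.3 in the PSC5 controls. With TGF-beta, Saa3 had 0.827 and 0.433 in PSC4 and 0.043 and 0.203 in PSC5 (log2 fold change -6.88, SE 1.10, adjusted p = 0.000175). Saa3 varied over an order of magnitude among controls and limma-voom did not call it (adjusted p = 0.0615). Without control PSC4 replicate 3 its value was -6.21, and without TGF-beta PSC4 replicate 2 it was -7.47. C1s1, a protease of the classical complement pathway, fell from 441 ± 83.9 to 43 ± 22.9 CPM (SD, n = 5 and 4), and C4b, a complement component, from 102 ± 48.9 to 13.4 ± 11.9 CPM (SD, n = 5 and 4) (adjusted p = 2.39e-05 and 0.0042). Hp, haptoglobin (-4.42), and Lcn2, lipocalin (-5.75), fell on the log2 scale (adjusted p = 0.00291 and 0.000421). Limma-voom called neither (adjusted p = 0.153 for Hp and 0.0722 for Lcn2). Both calls were also lost in PSC5 alone (adjusted p = 0.0571 and 0.13). Hp was at -3.80 without control PSC4 replicate 3 and Lcn2 at -6.61 without TGF-beta PSC5 replicate 1. Cfb, of the alternative complement pathway, fell by 2.39 (adjusted p = 0.0339), a call lost without control PSC4 replicates 2 or 3, control PSC5 replicate 1, TGF-beta PSC4 replicate 3 or TGF-beta PSC5 replicates 1 or 2 (adjusted p 0.0546 to 0.0886), and was at -3.07 without TGF-beta PSC4 replicate 2. Limma-voom did not call Cfb (adjusted p = 0.161). Serpina3n, an acute phase inhibitor, had 84.6, 393 and 547 CPM in the PSC4 controls and 102 and 89.4 in the PSC5 controls. With TGF-beta, Serpina3n had 138 and 117 in PSC4 and 19.7 and 1.63 in PSC5 and was not called (log2 fold change -1.98, adjusted p = 0.0692, or -2.53, adjusted p = 0.00177 with the replicate block). Few interferon-stimulated genes were called: 0 of 28 tested members rose and 4 fell (0 and 8 with the doubted libraries removed), Psmb9 (-1.33), H2-K1 (-1.08), H2-D1 (-0.67) and Irf1 (-0.52), log2 fold changes of genes of antigen presentation or its regulation. The call for H2-D1 was lost without control PSC4 replicate 2, TGF-beta PSC4 replicate 3 or TGF-beta PSC5 replicate 2 (adjusted p 0.0525 to 0.0684).

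The other large falls were Enpp2, autotaxin, which makes lysophosphatidic acid, from 469 ± 162 to 10.8 ± 8.16 CPM (SD, n = 5 and 4) (log2 fold change -5.58, SE 0.58, adjusted p = 4.42e-06), Pamr1, a secreted protein (-4.79), Il31ra, a cytokine receptor chain (-4.71), Gdpd2, a phosphodiesterase (-4.63), Agt, angiotensinogen (-4.59), and Pcdh10, a protocadherin (-4.50), as log2 fold changes with adjusted p at most 0.00109. Agt was at -5.64 without TGF-beta PSC4 replicate 3 and missed the call with limma-voom (adjusted p = 0.0543). Pcdh10 was at -3.71 without control PSC4 replicate 1 and at -5.35 without TGF-beta PSC5 replicate 1, and its groups overlap across the lines.

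Transcription factors of mesenchymal cells moved in both directions: 11 of 28 tested members rose and 9 fell (11 and 12 with the doubted libraries removed). Scx, scleraxis, the tendon factor, had 2.98, 2.75 and 2.43 CPM in the PSC4 controls and 2.66 and 2.69 in the PSC5 controls. With TGF-beta, Scx had 21.3 and 20.0 in PSC4 and 16.7 and 28.3 in PSC5 (log2 fold change 3.00, SE 0.27, adjusted p = 8.77e-07). Runx1 rose from 66.5 ± 14.3 to 218 ± 41 CPM (SD, n = 5 and 4), and Meox1, a homeobox factor of activated fibroblasts, from 0.53 ± 0.102 to 2.95 ± 1.96 CPM (SD, n = 5 and 4) (adjusted p = 3.86e-06 and 0.00018). Prrx1, a homeobox factor of fibroblasts, fell from 278 ± 18.3 to 145 ± 21.4 CPM (SD, n = 5 and 4) (log2 fold change -0.93, SE 0.11, adjusted p = 1.9e-05), and Osr1, of embryonic mesenchyme, from 76.6 ± 6.82 to 34.3 ± 12.9 CPM (SD, n = 5 and 4) (adjusted p = 0.000912). Osr2, its relative (-4.09), and Prrx2, the relative of Prrx1 (-1.82), fell more on the log2 scale, and Egr2, an immediate early factor (1.75), and Runx3 (2.07) rose (adjusted p at most 0.00929). Tcf21, a factor of quiescent stellate cells and fibroblasts, was at 0 in all 9 libraries. Twist1, with 36.2 ± 2.7 CPM in control and 29.9 ± 4.14 CPM with TGF-beta (SD, n = 5 and 4), was below every control in every TGF-beta library and narrowly missed the threshold (adjusted p = 0.0643, or -0.33, adjusted p = 0.00204 with the replicate block).

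Retinoid genes, which mark the storage role of stellate cells, moved in both directions. Of the joint list, 6 of 27 tested members rose and 8 fell (8 and 8 with the doubted libraries removed), with 5 falls without TGF-beta PSC5 replicate 2. Crabp2, a carrier of retinoic acid, had 1.31, 1.97 and 1.48 CPM in the PSC4 controls and 1.54 and 1.13 in the PSC5 controls. With TGF-beta, Crabp2 had 29.2 and 31.5 in PSC4 and 8.08 and 12.1 in PSC5 (log2 fold change 3.69, SE 0.28, adjusted p = 1.87e-07). Aldh1a3, which makes retinoic acid, rose from 1.09 ± 0.792 to 30.4 ± 14.2 CPM (SD, n = 5 and 4) (adjusted p = 5.32e-06). The other retinoic acid synthases went the opposite way and are given for that reason, outside the rule. Aldh1a1 fell (-3.27, adjusted p = 0.0064), as did Aldh1a2 (-3.81, adjusted p = 0.0395). Neither call was followed with a library left out, and that of Aldh1a2 is near the threshold. Rarb, a retinoic acid receptor that its ligand induces, rose by 0.94 (adjusted p = 0.00943). Lpl, lipoprotein lipase, fell from 127 ± 57.9 to 11.7 ± 3.76 CPM (SD, n = 5 and 4) (adjusted p = 7.75e-05). Plin2, a coat protein of lipid droplets, rose by 0.72 (adjusted p = 0.0163), and Plin4, another, fell by 1.15 (adjusted p = 0.0292), a call lost without control PSC5 replicates 1 or 2 or TGF-beta PSC5 replicates 1 or 2 (adjusted p 0.0509 to 0.0906). Crabp2 and the lipase separated the groups in opposite directions. Pparg, the fat cell regulator, had 3.3 ± 1.02 CPM in control and 4.49 ± 1.67 CPM with TGF-beta (SD, n = 5 and 4) and was not called (adjusted p = 0.37).

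Every tested gene of sterol and fatty acid synthesis rose: 30 of 30 tested members rose and 0 fell (30 and 0 with the doubted libraries removed), with a median of 1.29. The smallest rise was that of Acly, which makes acetyl-CoA in the cytosol (0.43), named here for its place in the range. Scd2, a fatty acid desaturase, had 744, 617 and 647 CPM in the PSC4 controls and 591 and 603 in the PSC5 controls. With TGF-beta, Scd2 had 3228 and 3383 in PSC4 and 2637 and 2721 in PSC5, a 4.73-fold rise (log2 fold change 2.24, SE 0.10, adjusted p = 1.05e-09). Fdps, of the isoprenoid pathway, rose from 97.4 ± 8.93 to 379 ± 47.9 CPM (SD, n = 5 and 4), and Hmgcs1, which starts the sterol pathway, from 120.0 ± 13.2 to 396 ± 86.4 CPM (SD, n = 5 and 4) (adjusted p at most 7.93e-08). The TGF-beta libraries were alike in this list, with library medians of 1.03 to 1.45 over the control mean against -0.12 to 0.14 in controls. TGF-beta was also above CM for 17 of the 30 genes and below for 0.

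The promoter of Hmgcs1 is shown because the whole pathway moved together, with a match to TCACNCCAC, letters of the sterol regulatory element of SREBP factors searched on both strands, in capitals.
Hmgcs1, chr13:119690101-119690400, plus strand, GRCm38.p6: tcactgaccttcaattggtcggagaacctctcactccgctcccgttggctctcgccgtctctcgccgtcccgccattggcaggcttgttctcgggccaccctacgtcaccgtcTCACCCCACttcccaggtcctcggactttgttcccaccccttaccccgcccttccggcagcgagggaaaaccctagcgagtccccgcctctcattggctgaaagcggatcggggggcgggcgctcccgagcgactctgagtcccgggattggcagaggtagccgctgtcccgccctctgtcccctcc
The match is in the forward direction at position -137. Of 20 genes of the list in the RefSeq table it was the only gene with these letters (5%), against 1.44% of all genes in the table. This motif, Hmgcs1 and the genes of the run on chromosome 1 were chosen for display after their values had been seen.

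Glycolysis and hypoxia genes rose nearly as widely: 22 of 28 tested members rose and 2 fell (22 and 2 with the doubted libraries removed), with a median of 1.00. Slc16a3, the lactate exporter, had 5.05, 3.75 and 5.67 CPM in the PSC4 controls and 4.89 and 4.22 in the PSC5 controls. With TGF-beta, Slc16a3 had 80.7 and 52.5 in PSC4 and 209 and 64.8 in PSC5, a 20.1-fold rise (log2 fold change 4.33, SE 0.44, adjusted p = 3.09e-06). Pdk1, which diverts pyruvate from the mitochondria, rose from 20.7 ± 1.3 to 80.5 ± 52.3 CPM (SD, n = 5 and 4), and Slc2a1, the glucose importer, from 103 ± 5.51 to 176 ± 45.7 CPM (SD, n = 5 and 4) (adjusted p = 0.00042 and 0.00222). TGF-beta PSC5 replicate 1 was the highest library for Slc16a3, Pdk1 and Egln3 and had the highest median of the list (1.43 over the control mean, against 0.66 to 0.96 in the other TGF-beta libraries). It also had the lowest mitochondrial share, 1.48%. Eno2, an enolase (-0.44), and Adm, adrenomedullin (-2.57; -3.63 without TGF-beta PSC5 replicate 1), fell (adjusted p = 0.000981 and 0.0038).

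Amino acid supply and secretion genes rose as well. Of targets of ATF4, the amino acid stress factor, 22 of 30 tested members rose and 2 fell (23 and 3 with the doubted libraries removed), with a median of 0.77. Aldh18a1, the entry to proline synthesis, had 134, 126 and 118 CPM in the PSC4 controls and 125 and 128 in the PSC5 controls. With TGF-beta, Aldh18a1 had 258 and 259 in PSC4 and 265 and 258 in PSC5 (log2 fold change 1.04, SE 0.07, adjusted p = 4.26e-08), a narrow spread within each group. Asns, asparagine synthetase, rose from 83.6 ± 13.2 to 176 ± 22.8 CPM (SD, n = 5 and 4), Trib3, a feedback pseudokinase, from 14 ± 2.76 to 41.2 ± 4.62 CPM (SD, n = 5 and 4), and Pycr1, which completes proline, from 14.7 ± 3.52 to 34.6 ± 4.23 CPM (SD, n = 5 and 4) (adjusted p at most 0.000857). The serine synthesis genes Phgdh (0.25) and Psat1 (0.34) were not called (log2 fold changes, adjusted p = 0.239 and 0.0641), while with the replicate block both were (0.32, adjusted p = 0.00788 and 0.43, adjusted p = 0.000974). Slc7a11, the cystine importer (1.38), Slc7a3, an arginine importer (1.81), and Aldh1l2, of mitochondrial folate metabolism (1.32), rose, and Shmt1 (-0.67), a serine hydroxymethyltransferase, and Sesn2 (-0.54), a stress sensor, fell on the log2 scale (adjusted p at most 0.012). In the endoplasmic reticulum list 19 of 29 tested members rose and 1 fell (21 and 2 with the doubted libraries removed), and 2 fell with the replicate block. Creb3l1, a factor for secretory load, rose from 34.4 ± 4.62 to 109 ± 3.34 CPM (SD, n = 5 and 4), Kdelr3, a retrieval receptor, from 86.3 ± 4.75 to 165 ± 10.1 CPM (SD, n = 5 and 4) (adjusted p = 0.000235 and 4.91e-06), and Xbp1, a factor of the unfolded protein response, by 0.58 on the log2 scale (adjusted p = 4.96e-07). The member that fell was Sdf2l1, a chaperone cofactor (-0.64, adjusted p = 0.00254). Hspa5, the stress chaperone BiP, had 847 ± 66.1 CPM in control and 927 ± 41.8 CPM with TGF-beta (SD, n = 5 and 4) and was not called (adjusted p = 0.0785).

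**Figure D5:**
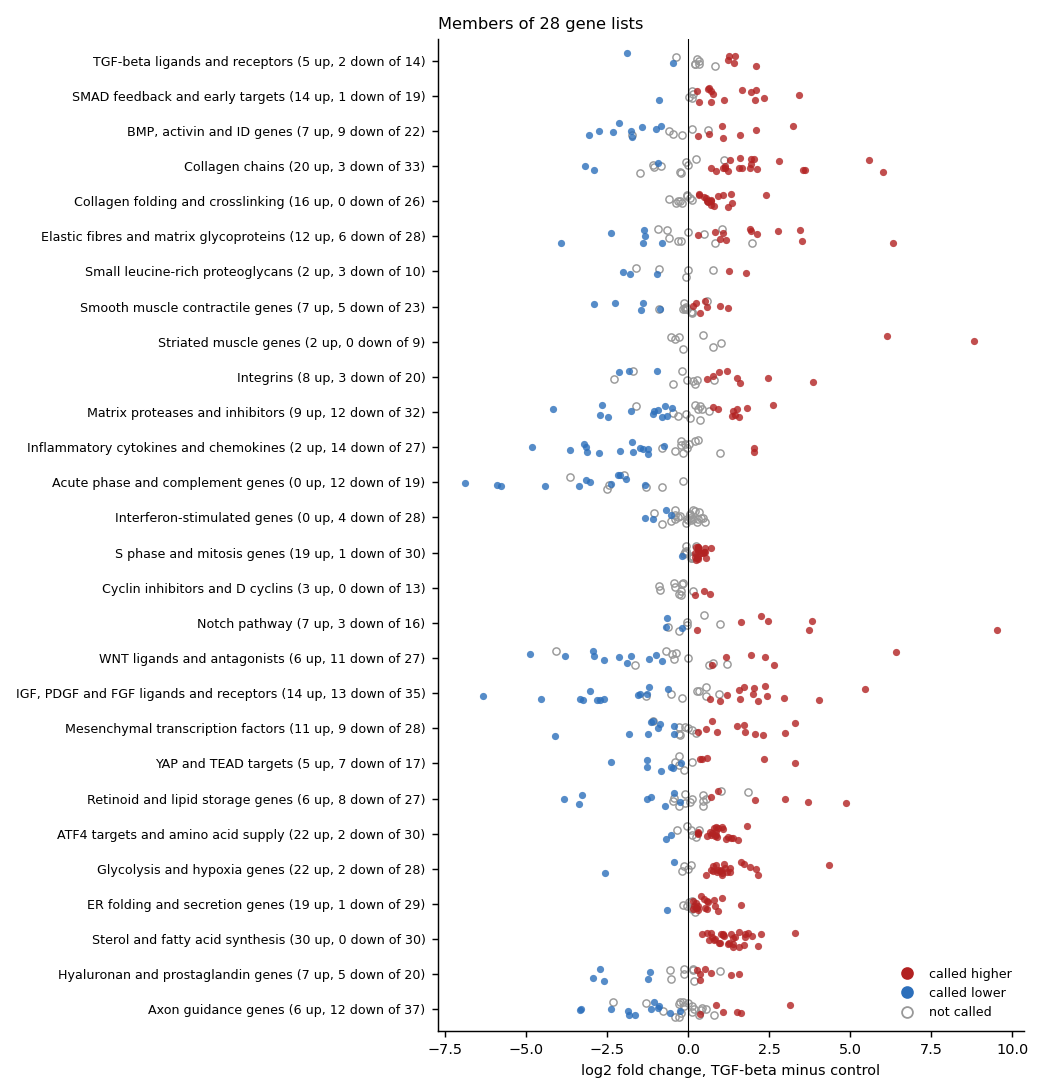
Log2 fold change of TGF-beta over control (x axis) for each tested member of 28 gene lists (rows, with counts called higher and lower), red for called higher, blue for called lower and open for not called. All 30 sterol and fatty acid genes lie to the right of 0, all 12 called acute phase and complement genes lie to the left, and the smooth muscle list straddles 0.

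Cell cycle genes rose slightly. Of S phase and mitosis genes, 19 of 30 tested members rose and 1 fell (21 and 2 with the doubted libraries removed), with a median of 0.26. Bub1, a mitotic checkpoint kinase, had 58.1, 59.3 and 58.2 CPM in the PSC4 controls and 59.2 and 65.1 in the PSC5 controls. With TGF-beta, Bub1 had 81 and 84.3 in PSC4 and 84.7 and 93.2 in PSC5, a 1.42-fold rise (log2 fold change 0.51, SE 0.07, adjusted p = 4.06e-05). Plk1, a mitotic kinase, rose from 59.4 ± 5.17 to 97.5 ± 6.4 CPM (SD, n = 5 and 4), and Mki67, the proliferation marker, from 413 ± 37.1 to 598 ± 97.5 CPM (SD, n = 5 and 4) (adjusted p at most 0.000545). Every TGF-beta library was above every control for Bub1, Plk1 and Mki67. Mcm4, a replication helicase subunit, was the 1 member that fell (-0.18, adjusted p = 0.025), a call lost without control PSC4 replicates 2 or 3, control PSC5 replicates 1 or 2, TGF-beta PSC4 replicate 2 or TGF-beta PSC5 replicate 1 (adjusted p 0.0525 to 0.0688). Of cyclin-dependent kinase inhibitors and D cyclins, 3 of 13 tested members rose and 0 fell (4 and 2 with the doubted libraries removed). Cdkn2b, a kinase inhibitor that TGF-beta is known to induce in epithelia, rose from 48.7 ± 3.1 to 78.8 ± 9.41 CPM (SD, n = 5 and 4) (log2 fold change 0.67, SE 0.13, adjusted p = 0.000892). The others were Cdkn2d (0.49, adjusted p = 0.0205), lost without control PSC5 replicate 1 or TGF-beta PSC4 replicates 2 or 3 (adjusted p 0.0505 to 0.0679), and Cdkn2a (0.23, adjusted p = 0.0433), lost without control PSC4 replicates 1 or 2, control PSC5 replicates 1 or 2, TGF-beta PSC4 replicate 2 or TGF-beta PSC5 replicate 1 (adjusted p 0.0538 to 0.152) and with the replicate block (adjusted p = 0.0568). Cdkn1a, the p53 target, had 272, 125 and 87.2 CPM in the PSC4 controls and 232 and 268 in the PSC5 controls. With TGF-beta, Cdkn1a had 86.2 and 79.1 in PSC4 and 135 and 148 in PSC5 and was not called (log2 fold change -0.88, adjusted p = 0.0502, or -0.61, adjusted p = 0.0117 with the replicate block). With the replicate block 6 members of this list fell.

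TGF-beta libraries were also set against CM libraries, the other stimulus in the series. TGF-beta and CM libraries differed in 4916 genes (35.3%). Among the members described here, TGF-beta was above CM for Col1a1 by 2.34 (adjusted p = 4.63e-05), Itgb3 by 3.89 (adjusted p = 6.53e-07), Hey1 by 4.99 (adjusted p = 1.21e-06) and Pmepa1 by 2.66 (adjusted p = 2.13e-06) on the log2 scale. It was below CM for Ccl2, Cxcl1 and C3, with log2 differences of -4.46 (adjusted p = 6.96e-09), -6.11 (adjusted p = 1.07e-06) and -7.99 (adjusted p = 1.26e-06). Against control medium, CM itself was higher in Ccl2 (1.31, adjusted p = 0.00064) and C3 (2.09, adjusted p = 0.0154). The differences from CM in Ccl2 and C3 thus hold changes in both media. The difference for Slc2a1, at -0.06 (adjusted p = 0.838), did not pass the threshold. The comparison with control and the comparison with CM share the 4 TGF-beta libraries.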

How the data were processed

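The authors deposited 1 table of expected counts per gene for each of 17 RNA sequencing libraries. Per the submitters' processing notes, these estimated counts came from Salmon 1.4.0, with DESeq 2 and the GRCm38 (mm10) build also named. The aligner's index, library strand and read filters are not given in the sources used here. Counts were rounded to whole numbers, a change of 300.9 or less in any library total, and 35437 of 35896 gene identifiers had a symbol in the table supplied with the reference. All 9 compared libraries held 24318977 to 29208095 counts, and intervals and floors cover counting error only.

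Genes were tested with edgeR 4.0.16 (R 4.3.3) by its quasi-likelihood test, with TMM factors and a filter on low counts. Group and labelled cell line were terms over all 17 libraries, and p-values were Benjamini-Hochberg adjusted over 13923 genes with a threshold of 0.05. Adjusted p-values in the text are from this test unless DESeq2 (1.42.0) or limma-voom (limma 3.58.1) is named. On data simulated from 13762 genes of this comparison, 72.7% of genes changed 2-fold and 88.9% of those changed 4-fold were recovered, with 13 false among 173 calls. The simulation changed only a small share of the genes, where 40.2% were called here, and drew both lines from the same mean. Its rates therefore check the procedure and are not the error rates of this comparison.

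The replicate numbers go with passages of each line, per the labels, so the alternative with a term for each line and number is called the replicate block. Deviations from the group mean of control and TGF-beta libraries with the same line and number correlated at 0.252 to 0.49. Pairs with another number of the same line lay between -0.423 and 0.453, with a median of 0.338. Among them, -0.423 and -0.361 were the values of control PSC4 replicate 1, a doubted library, and the rest lay between 0.325 and 0.453. With line means removed as well, the same pairs lay between -0.013 and 0.068.

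The genes named in the text are the 12 largest rises and 12 largest falls among called genes whose higher group averaged 10 CPM or more and whose groups were apart within each line, a set of core members of each gene list, and up to 4 called members of each list in each direction with at least 5 CPM. Genes outside that rule are marked as such or belong to a list named in full, and a few genes that the rule takes in are not reported here. The members and lists were chosen with earlier results of these data known. Promoter sequences are from RefSeq (GRCm38.p6), and gene positions are from GENCODE M21. Alternatives changed the scaling, filter, tool, threshold, samples and model terms, and left out each library in turn.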

Additional observations from a re-analysis of the deposited data

Results flagged for a closer look

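In 28 of 540 sets of replicate values of the named genes, the highest or lowest library stood apart from the others by Dixon's criterion, where chance flags about 1 in 20 groups. TGF-beta PSC5 replicate 1 was that library in 12 and TGF-beta PSC5 replicate 2 in 8. The values below are CPM, with the range of the other libraries of the group in brackets. TGF-beta PSC5 replicate 1 was the highest of its group for Adamts6 at 91.6 (64.7 to 67.2), Aldh18a1 at 265 (258 to 259), Aldoc at 13.1 (3.66 to 4.77) and Col5a1 at 1369 (726 to 829). The highest value was also in TGF-beta PSC5 replicate 1 for Igfbp3 at 6.71 (0.976 to 1.84), Itga2b at 5.59 (3.49 to 3.65), Lmod1 at 3.65 (2.1 to 2.35) and Ptges at 7.74 (1.3 to 2.25). The highest value was also in TGF-beta PSC5 replicate 1 for Rspo2 at 1.63 (0.651 to 0.795), Sema3e at 27.9 (11.1 to 12.4) and Synpo2 at 4.56 (1.5 to 1.77). TGF-beta PSC5 replicate 2 was the highest of its group for Ctsw at 39.8 (23.4 to 24.6), Smtn at 104 (95.4 to 96.9), Tnnt2 at 38.6 (30.1 to 31.3) and Wnt11 at 12.4 (6.32 to 7.09). TGF-beta PSC5 replicate 2 was the lowest of its group for Igf1 at 2.48 (11.2 to 12.4), Osr1 at 15.1 (39.4 to 42.8), Pdgfra at 56.7 (174 to 198) and Postn at 1126 (2410.0 to 2581). Control PSC4 replicate 1 was the highest of its group for Cxcl1 at 11.2 (9.38 to 9.55), Dlc1 at 146 (130.1 to 132) and Wnt7b at 0.238 (0 to 0.0359). Control PSC5 replicate 2 was the highest of its group for Bub1 at 65.1 (58.1 to 59.3). Control PSC4 replicate 3 was the highest of its group for F3 at 386 (304 to 320.3). TGF-beta PSC5 replicate 1 was the lowest of its group for Phlda3 at 61.8 (73.7 to 76.1). Control PSC4 replicate 2 was the highest of its group for Piezo2 at 0.429 (0.144 to 0.199). TGF-beta PSC4 replicate 2 was the lowest of its group for Ptgs2 at 46.9 (71.4 to 74.5). TGF-beta PSC4 replicate 3 was the highest of its group for Runx1 at 279 (190.3 to 202). Hypoxia gene Aldoc and collagen chain Col5a1 are among the genes high in TGF-beta PSC5 replicate 1, the library with the highest glycolysis and hypoxia median. The part of these genes' values in the results above was not tested beyond leaving that library out.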

How the results depend on the processing

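Of the 232 named genes called, 137 stayed called under every alternative and 95 lost the call under some, 0 with a change of direction. Of 37 not called, 17 were called under some alternative and 17 changed sign under some. The count of called genes was 5598 and lay between 4750 and 5516 with 1 library left out, at 1669 with a log2 change of at least 1 also required, and at 2537 in PSC4 and 2629 in PSC5 alone, with fewer samples. The test between lines called 0, and 3 without the filter, 29 with DESeq2, 6 with the 2 groups alone, 3 with the doubted libraries counted as PSC5, 2 without them, and 0 to 2 with 1 library left out. Against CM, 4916 genes became 3192 at a threshold of 0.01 and 1583 with a log2 change of at least 1. With the replicate block, 7091 genes were called against control and 6039 against CM, and of 56 counts of list members that rose or fell it left 25 as they were, moved 26 by at most 1.5 times and moved 5 by more, which are given beside their lists. The cause of these differences was not tested. The named genes whose log2 fold change turned sign were all uncalled, both in the joint fit and under the alternative that turned them. Without the doubted libraries, values were 0.0322 for Ccnd1, 0.16 for Notch3, 0.0243 for Phlda3, 0.16 for Tagln, -0.12 for Tgfbi and 0.0238 for Tpm1. In PSC4 alone, values were -0.33 for Cnn1, -0.16 for Lif, 0.82 for Lum, 0.32 for Notch3, 0.28 for Nrp2 and 0.0893 for Phlda3. In PSC5 alone, values were -1.86 for Eln, -0.27 for Fbln5, -0.57 for Itga11, 0.19 for Lox, -0.27 for Pparg, 0.22 for Sox4, 0.25 for Tagln, -0.0739 for Tgfbi, -0.0458 for Tgfbr1 and 0.11 for Tpm1. With limma-voom, values were -0.089 for Itga11 and 0.30 for Lum. Without the line term, values were 0.33 for Lum, 0.0165 for Tagln and -0.0131 for Tgfbi. With the replicate block, values were 0.0645 for Notch3, 0.069 for Tagln, -0.21 for Tgfbi and 0.0045 for Tpm1. With the doubted libraries counted as PSC5, values were 0.10 for Notch3, 0.10 for Tagln and -0.0889 for Tgfbi. With upper-quartile factors, values were -0.0258 for Tgfbi. With 1 library left out, the sign also turned in part of the range for Ccnd1 (-0.56 to 0.0171), Cnn1 (-0.0219 to 0.30), Itga11 (-0.0502 to 0.63), Lox (-0.17 to 0.0788), Lum (-0.42 to 0.39), Notch3 (-0.18 to 0.24), Nrp2 (-0.32 to 0.0114), Phlda3 (-0.24 to 0.0205), Sox4 (-0.0795 to 0.0755), Tagln (-0.24 to 0.17), Tgfbi (-0.13 to 0.21) and Tpm1 (-0.15 to 0.0266). Depth limits genes near the floor of 3 counts per library, such as Lad1, Ly6d and Heyl, whose fold is known only within a wide counting interval.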

Other observations

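Genes of axon guidance, which also steer cell migration, moved in both directions: 6 of 37 tested members rose and 12 fell (9 and 14 with the doubted libraries removed). Of all tested genes, 19.7% rose and 20.5% fell. Sema7a, a membrane-anchored semaphorin, had 27.1, 10.7 and 9.94 CPM in the PSC4 controls and 21 and 14.6 in the PSC5 controls. With TGF-beta, Sema7a had 121 and 137 in PSC4 and 171 and 176 in PSC5 (log2 fold change 3.15, SE 0.26, adjusted p = 3.96e-07). Slit3, a secreted repellent, had 79.2, 110.2 and 103 CPM in the PSC4 controls and 89.1 and 83.3 in the PSC5 controls. With TGF-beta, Slit3 had 11.9 and 8.67 in PSC4 and 13 and 3.54 in PSC5 (log2 fold change -3.32, SE 0.36, adjusted p = 5.65e-06). The groups did not overlap for either. Unc5b, a netrin receptor (1.62), and Sema3e, a ligand of plexin D1 (1.51), rose on the log2 scale, and Sema3f (-1.86) and the ephrin receptor Epha4 (-3.30) fell (adjusted p at most 0.000331). Sema6a fell by 2.36 (adjusted p = 0.00568; -3.10 without TGF-beta PSC5 replicate 1). Slit2 (-0.56, adjusted p = 0.0305) lost its call without control PSC4 replicate 2, control PSC5 replicates 1 or 2 or TGF-beta PSC5 replicates 1 or 2 (adjusted p 0.0559 to 0.108), and Sema6d (1.09, adjusted p = 0.0314) without control PSC4 replicate 1, control PSC5 replicates 1 or 2, TGF-beta PSC4 replicates 2 or 3 or TGF-beta PSC5 replicates 1 or 2 (adjusted p 0.0549 to 0.0711). TGF-beta was above CM for 12 of the 37 genes of this list and below for 12.

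The hyaluronan synthases Has1 and Has2 rose, genes of hyaluronan degradation moved in both directions, and prostaglandin receptors fell. In the list of both, 7 of 20 tested members rose and 5 fell (7 and 5 with the doubted libraries removed). Has2, the main hyaluronan synthase of fibroblasts, had 35.9, 29.7 and 35.2 CPM in the PSC4 controls and 38 and 40.9 in the PSC5 controls. With TGF-beta, Has2 had 71.1 and 84.2 in PSC4 and 104 and 119 in PSC5 (log2 fold change 1.31, SE 0.23, adjusted p = 0.000333), and Has1, another, rose from 1.72 ± 0.31 to 5.13 ± 1.6 CPM (SD, n = 5 and 4) (adjusted p = 0.00238). Cemip, which is needed to degrade hyaluronan in fibroblasts, fell from 119.8 ± 83.5 to 14.8 ± 8.36 CPM (SD, n = 5 and 4), and Cd44, a hyaluronan receptor, rose from 306 ± 60.9 to 438 ± 57.8 CPM (SD, n = 5 and 4) (adjusted p = 0.000224 and 0.0077). Cemip2, a relative of Cemip at the cell surface, rose from 46.6 ± 3 to 76.5 ± 10.4 CPM (SD, n = 5 and 4) (log2 fold change 0.72, adjusted p = 0.000207). The receptors Ptgir, for prostacyclin (-2.70), Ptgfr, for prostaglandin F (-2.58), and Ptger4, for prostaglandin E (-1.23), fell on the log2 scale (adjusted p at most 0.000112). None of these 8 genes overlapped between the groups, but most were named as called members with large changes. Of the 20 tested members, 6 lay entirely above and 5 entirely below the controls, where 32.7% of all tested genes did either.

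Neighbours changed together at 3 further places, singled out after their values had been seen. On chromosome 5 (90759360 to 90905938, GRCm38), the chemokine genes Cxcl5, Cxcl3, Cxcl1 and Cxcl2 were lower and Ppbp was not called, 4 lower of 5 tested among 7 annotated. Cxcl3 (adjusted p = 0.0404) lost its call without control PSC4 replicates 1, 2 or 3, TGF-beta PSC4 replicates 2 or 3 or TGF-beta PSC5 replicate 2 (adjusted p 0.0682 to 0.0959), and both Cxcl3, with at most 5 counts in a control library, and Cxcl2, with at most 25, are at the limit of the depth. On chromosome 6 (124512405 to 124581171), the complement proteases C1ra (-3.14), C1s1 (-3.36) and C1rb were all lower, with C1ra going from 259 ± 49.8 to 29.3 ± 14.5 CPM (SD, n = 5 and 4). C1rb held 2 to 6 counts in the control libraries and 0 or 1 with TGF-beta, so the size of its fall is not known at this depth (fitted log2 fold change -3.47, or -5.19 without TGF-beta PSC4 replicate 3). Reads of C1ra and C1rb, near-identical copies, may have been split between them by the counting. On the same chromosome, Olr1 has the C-type lectin Clec7a as its neighbour, which had 0 or 1 count in each control library and 22 to 60 with TGF-beta, a ratio of 80.3-fold (95% exact counting interval 27.1 to 393). The myeloid markers Adgre1, Tyrobp, C1qa and C1qb were at 0 in all 9 libraries.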
